A study of Mus musculus with 4 samples.

Results

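RNA from the inguinal white fat of mice (ingWAT, a depot beneath the skin) was sequenced in 2 Ctrl and 2 cKO libraries, and 8 genes of cholesterol synthesis were followed across them: *Hmgcs1*, *Idi1*, *Fdps*, *Fdft1*, *Sqle*, *Lss*, *Cyp51* and *Srebf2*. They were taken by symbol from a table of 19030 genes. Ctrl and cKO mice were C57BL/6 animals, 3 months old by the labels, and both genotypes were kept at 4°C. In cKO mice, labelled *Oct3* deficient, an Adiponectin-Cre transgene acted on floxed *Oct3* alleles (Oct3 fl/fl) in adipocytes. Ctrl mice, labelled control, were Oct3 fl/fl littermates, so both genotypes share the floxed alleles. Cells of the depot other than adipocytes keep the gene, the comparison has no group outside the cold, and the number of mice behind each library is not stated. The p-values therefore measure only the spread between these libraries. *Slc22a3*, the official symbol of *Oct3*, stood at 17.0 and 17.7 FPKM in Ctrl and at 9.07 and 9.50 FPKM in cKO, and fell by 0.83 on the log2 scale (limma adjusted p = 0.00044). FPKM scale the fragments of a gene by transcript length and library size, so levels can be set side by side between genes.

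Cholesterol is built from acetyl-CoA. The mevalonate arm of the pathway ends at farnesyl diphosphate, which also feeds protein prenylation, dolichol and ubiquinone, and the sterol arm runs from squalene through lanosterol to cholesterol. The genes of both arms are classical targets of SREBP2, the product of *Srebf2*, a membrane-bound transcription factor that is released by cleavage when sterols in the endoplasmic reticulum are low. White adipocytes hold a large share of the body's free cholesterol, at the surface of the lipid droplet and in membranes, and take much of it up from lipoproteins. All 8 genes encode synthesis enzymes or their transcription factor, and none encodes an uptake protein, so receptors and lysosomal handling were read from further genes.

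The libraries differed by genotype in the cell type markers they held. Of 13 skeletal muscle genes 10 were tested and all 10 fell, with a summed level of 1759 to 2593 FPKM in Ctrl and 64.5 to 65.2 FPKM in cKO. All 8 brown adipocyte genes rose (1596 to 1900.35 FPKM in Ctrl, 4318 to 5088 in cKO), as did 7 of 8 B cell genes (251 to 284 and 386 to 438) and 6 of 7 T cell genes (93.3 to 94.7 and 129 to 169). Falls were called for 4 of 8 white adipocyte genes (21490.2 to 21740.7 and 17572.8 to 17865.1), 6 of 8 fibroblast progenitor genes (1466 to 1706 and 989 to 993), 4 of 7 endothelial genes (220 to 223 and 188 to 194) and 2 of 5 erythroid genes (2851 to 3008 and 2412 to 2591). The lists moved both ways for Schwann and nerve genes (5 fell and 1 rose of 6), macrophage genes (4 fell and 1 rose of 8), neutrophil genes (5 rose and 1 fell of 6) and sebaceous gland genes (1 rose and 1 fell of 3, where the gene that rose, *Elovl3*, is also on the brown list). One of 2 tested keratinocyte genes fell, no epithelial gene passed the filter, and *Krt5*, *Krt1*, *Ivl* and *Krt8* were listed at 0 or at most 0.07 FPKM. The adipocyte gene *Adipoq* was abundant in every library, at 1527 and 1485 FPKM in Ctrl and at 966 and 1046 FPKM in cKO. It was among the white adipocyte genes that fell (limma adjusted p = 0.0027). In bulk tissue, fewer cells of a type and less RNA per cell cannot be told apart, and the part of these markers in the results that follow was not tested.

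Among the 8 cholesterol synthesis genes, the difference between cKO and Ctrl ingWAT passed the test for *Cyp51* alone. *Cyp51*, which encodes the cytochrome P450 that demethylates lanosterol, was at 81.8% of its Ctrl mean. Of the 8 genes 1 fell and none rose, at a limma adjusted p under 0.05, where 13.8% of the 12658 genes tested fell, 12% rose and 25.8% were called either way. The share of the 8 genes that was called is thus near or below that of all genes. At an unadjusted p under 0.05, 3 of the 8 differed (*Cyp51*, *Idi1* and *Sqle*, all lower). Of the 12658 genes tested, 4873 did so in either direction, a share near that of the 8. The cKO libraries were both lower than either Ctrl library for 5 of the 8 genes, against 34.6% of all genes tested, and both higher for 2, against 31.9%. The log2 fold changes ran from -0.28 to 0.13 with a median of -0.13, beside a median of -0.0060 over all genes tested. Summed over the 8 genes, FPKM came to 372 and 364 in Ctrl and to 359 and 351 in cKO.

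With each library scaled to the same sum over the genes outside the marker lists, the median of the 8 genes was -0.17 and that of all genes -0.051. *Idi1* then passed the test together with *Cyp51* (limma adjusted p = 0.037 and 0.011), so that 2 of the 8 genes fell. With that scaling, the calls over all genes went from 1750 lower and 1519 higher to 2129 lower and 1141 higher. The sum it set lay above the FPKM sums of 484152 to 497839, so levels rose in every library. The pseudocount added before taking logs then weighed less on low genes, and the genes past the filter may have changed. The parts of the sum, the pseudocount and the filter in the changed calls, *Idi1* included, were not tested apart.

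Start sites and the bases before them were read from RefSeq annotation on GRCm38.p6, the assembly behind mm10, where 5 of the 8 genes (*Hmgcs1*, *Lss*, *Cyp51*, *Idi1* and *Srebf2*) had an entry. *Hmgcs1* encodes an enzyme early in the mevalonate arm, *Cyp51* is the gene among the 8 that fell, and *Srebf2* encodes the transcription factor. *Mvk*, *Msmo1* and *Sc5d* are the synthesis genes outside the 8 with the largest falls. Shown here in that order are the 150 bases before each start site. They lie at chr13:119690201-119690350 (plus strand, *Hmgcs1*), chr5:4104698-4104847 (minus strand, *Cyp51*), chr15:82147119-82147268 (plus strand, *Srebf2*), chr5:114444119-114444268 (plus strand, *Mvk*), chr8:64733579-64733728 (minus strand, *Msmo1*) and chr9:42264301-42264450 (minus strand, *Sc5d*), and each is written 5′ to 3′ on the strand of its gene. Capitals mark the letters TCACNCCAC of the classical sterol regulatory element, CCAAT (the CCAAT box) and GGGCGG (the GC box), each searched on both strands, so that ATTGG and CCGCCC are matches on the other strand. None of the marked matches overlap.
Hmgcs1: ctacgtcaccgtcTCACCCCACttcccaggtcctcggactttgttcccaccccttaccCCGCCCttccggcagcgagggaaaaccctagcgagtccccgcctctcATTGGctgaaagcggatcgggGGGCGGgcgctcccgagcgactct
Cyp51: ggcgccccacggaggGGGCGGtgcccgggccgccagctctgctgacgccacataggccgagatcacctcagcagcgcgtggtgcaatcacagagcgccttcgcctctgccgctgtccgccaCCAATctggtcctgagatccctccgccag
Srebf2: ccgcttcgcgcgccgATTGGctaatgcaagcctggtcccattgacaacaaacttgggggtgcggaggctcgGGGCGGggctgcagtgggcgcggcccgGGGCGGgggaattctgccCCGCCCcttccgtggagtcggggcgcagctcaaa
Mvk: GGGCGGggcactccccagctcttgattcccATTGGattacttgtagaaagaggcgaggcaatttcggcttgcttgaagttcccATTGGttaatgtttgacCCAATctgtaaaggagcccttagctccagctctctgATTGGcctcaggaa
Msmo1: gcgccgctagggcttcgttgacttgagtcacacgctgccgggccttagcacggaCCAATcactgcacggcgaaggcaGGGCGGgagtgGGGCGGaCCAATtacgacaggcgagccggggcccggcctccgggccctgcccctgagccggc
Sc5d: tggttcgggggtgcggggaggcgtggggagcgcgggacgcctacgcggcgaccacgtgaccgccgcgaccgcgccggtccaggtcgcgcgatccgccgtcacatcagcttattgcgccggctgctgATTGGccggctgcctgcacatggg

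Over the 250 bases before the start, a CCAAT box was found in 5 of the 5 genes with an entry and in 33.8% of 32851 mouse promoters, and a GC box in 5 of the 5 and in 32.7%. The sterol regulatory letters were found in 1 of the 5, *Hmgcs1*, with the first base at -137 from the start, and in 1.05% of all promoters. Only the exact letters were searched, so variant forms of each element were not counted. These are matches of letters and no measurement of binding.

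The 3 of the 8 genes that belong to the mevalonate arm did not pass the test, and they did not share a direction. *Hmgcs1* (chr13:119690351-119708260), the cytosolic HMG-CoA synthase early in the arm, measured 107 and 106 FPKM in Ctrl and 95.3 and 99.99 FPKM in cKO. Its cKO libraries both lay below the Ctrl libraries, with a log2 fold change of -0.12 (SE 0.056, 95% interval -0.26 to 0.0091, limma adjusted p = 0.154). *Idi1* (chr13:8885606-8892396), the isomerase that provides the allylic starter for chain elongation, was at 47.0 and 49.1 FPKM in Ctrl and at 42.3 and 43.0 FPKM in cKO. The groups did not overlap, and the log2 fold change of -0.17 (SE 0.056, interval -0.30 to -0.035) missed the threshold at a limma adjusted p of 0.068. *Fdps* (chr3:89093588-89101967), the farnesyl diphosphate synthase at the branch point of the pathway, was at 104 and 101 FPKM in Ctrl and at 118 and 107 FPKM in cKO. It was the 1 enzyme among the 8 whose cKO libraries both lay above Ctrl, with a log2 fold change of 0.13 (SE 0.066, interval -0.031 to 0.28, limma adjusted p = 0.210), and its cKO libraries differed from each other by more than its Ctrl libraries did.

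Of the 4 sterol arm enzymes among the 8 genes, *Cyp51* differed most from Ctrl. *Fdft1* (chr14:63145150-63181687), the squalene synthase that commits farnesyl diphosphate to sterols, measured 29.3 and 27.9 FPKM in Ctrl and 28.9 and 26.7 FPKM in cKO. Its groups overlapped, with a log2 fold change of -0.041 (SE 0.066, interval -0.20 to 0.11, limma adjusted p = 0.691) that changed sign to 0.016 without cKO replicate 2. *Fdft1* shares 774 bases of its span with the neighbouring *Ctsb*, a lysosomal protease gene at 484 to 531 FPKM in the 4 libraries, and strand-specific counting is not stated, so reads there cannot be told apart. *Sqle* (chr15:59315092-59331193), the squalene epoxidase that uses molecular oxygen and is known as a rate-limiting step, was at 23.0 and 20.5 FPKM in Ctrl and at 19.4 and 18.8 FPKM in cKO. Both cKO libraries were lower, but the Ctrl libraries lay farther apart than the nearest Ctrl and cKO values did, and the log2 fold change of -0.18 (SE 0.072, interval -0.35 to -0.0076) did not pass (limma adjusted p = 0.116). *Lss* (chr10:76531565-76557139), which closes the sterol rings to give lanosterol, was at 15.9 and 15.4 FPKM in Ctrl and at 14.5 and 13.9 FPKM in cKO. The groups did not overlap, with a log2 fold change of -0.13 (SE 0.063, interval -0.28 to 0.019, limma adjusted p = 0.179). A long noncoding RNA gene that overlaps *Lss* by 11269 bases did not reach a mean of 1 FPKM.

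*Cyp51* (chr5:4080674-4104697) measured 25.8 and 24.5 FPKM in Ctrl and 20.1 and 21.1 FPKM in cKO, or 25.2 ± 0.919 and 20.6 ± 0.693 (mean ± SD, n = 2 each). The groups were separated by more than the spread within either, and the gene fell by 0.28 on the log2 scale (SE 0.062, interval -0.42 to -0.13, limma adjusted p = 0.018). The direction held in all 13 alternative analyses and the call in 9 of them. The call was lost without Ctrl replicate 1 (limma adjusted p = 0.140), without Ctrl replicate 2 (0.067), without cKO replicate 1 (0.083) and with no filter on low genes (0.053), and the adjusted p ranged from 0.0091 to 0.140 over the alternatives.

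*Srebf2* (chr15:82147269-82205379) itself differed little between the genotypes. It measured 19.4 and 19.2 FPKM in Ctrl and 19.9 and 20.8 FPKM in cKO, so that both cKO libraries lay above Ctrl by a small margin. The log2 fold change was 0.068 (SE 0.060, interval -0.074 to 0.21, limma adjusted p = 0.451). SREBP2 acts after cleavage of its precursor, which mRNA levels do not measure.

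**Figure D1:**
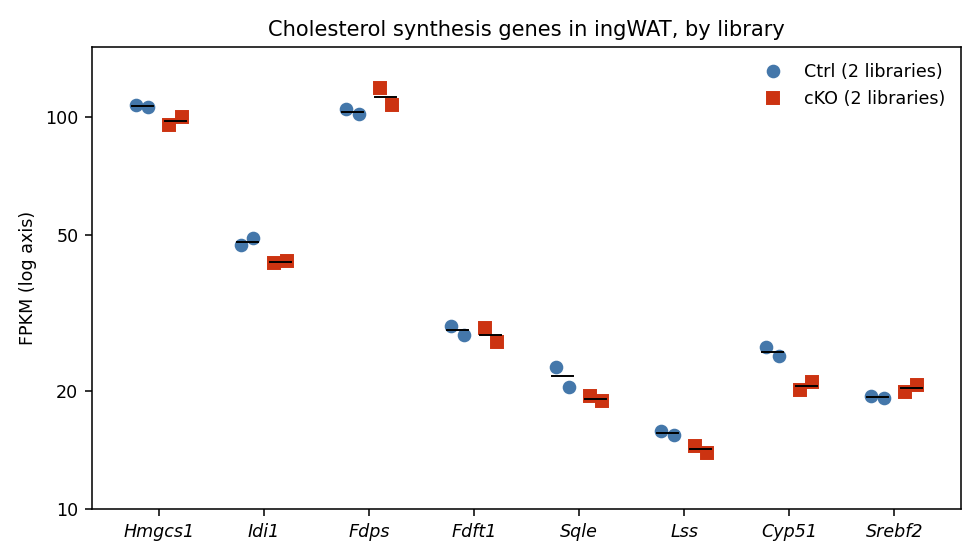
FPKM (log axis) of the 8 cholesterol synthesis genes in each ingWAT library, with circles for the 2 Ctrl and squares for the 2 cKO libraries and bars at the group means. The cKO squares lie below both Ctrl circles for 5 genes and above them for *Fdps* and *Srebf2*. For *Fdft1* the ranges of squares and circles overlap, and the gap is widest for *Cyp51*.

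The levels of the 8 genes spanned 15.7 FPKM (*Lss*) to 106 FPKM (*Hmgcs1*) in the Ctrl means and kept much of their order in cKO. In Ctrl the order was *Hmgcs1* (106), *Fdps* (103), *Idi1* (48.0), *Fdft1* (28.6), *Cyp51* (25.2), *Sqle* (21.8), *Srebf2* (19.3) and *Lss* (15.7), and no neighbours in it had overlapping libraries. In cKO *Fdps* (112) stood above *Hmgcs1* (97.6), and *Srebf2* (20.3) overlapped *Cyp51* (20.6) and stood above *Sqle* (19.1). The ratio of *Fdps* to *Hmgcs1* was 0.975 and 0.958 in Ctrl and 1.24 and 1.07 in cKO. The ratio of *Fdps* to *Cyp51* was 4.04 and 4.13 in Ctrl and 5.87 and 5.06 in cKO. That both ratios separated the genotypes follows from the single genes and adds nothing to them. *Fdps* lay higher in both cKO libraries, and *Hmgcs1* and *Cyp51* lay lower. With GENCODE transcript lengths, an estimated 900 (*Sqle*) to 6442 (*Hmgcs1*) reads stood behind each of these values, which puts the counting error of a log2 difference at 0.019 to 0.046, below the limma standard errors of 0.056 to 0.072.

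The rest of the pathway was read from a list of 21 synthesis genes that holds the 7 enzymes. Of the 21, 5 fell (*Cyp51*, *Mvk*, *Msmo1*, *Ebp* and *Sc5d*), 1 rose and 15 did not pass, and 14 had both cKO libraries lower than either Ctrl library. Over all genes tested the shares were 13.8% for falls, 12% for rises, 25.8% for calls either way and 34.6% for both cKO libraries lower. The share of the list called either way lay near that of all genes. Its shares of falls and of genes with both cKO libraries lower were larger, and its share of rises was smaller. The list was chosen with earlier results of these data known, and its difference from all genes was not tested. The median log2 fold change was -0.13, and the summed level was 967 and 941 FPKM in Ctrl and 879 and 859 FPKM in cKO. The mevalonate arm (8 genes) contributed 1 of the falls and the sterol arm (13 genes) the other 4.

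In the mevalonate arm, *Mvk*, the mevalonate kinase, measured 20.03 and 18.8 FPKM in Ctrl and 13.7 and 13.8 FPKM in cKO. It fell by 0.47 on the log2 scale (SE 0.064, limma adjusted p = 0.0025) and passed the threshold in all 13 alternatives.

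Past lanosterol, *Msmo1*, *Sc5d* and *Ebp* fell, while 8 of the 13 sterol arm genes did not pass the test. *Msmo1*, the methyl sterol oxidase that acts after *Cyp51*, measured 31.4 and 31.1 FPKM in Ctrl and 19.2 and 22.3 FPKM in cKO. It fell by 0.57 (SE 0.079, limma adjusted p = 0.0028). *Sc5d*, the sterol desaturase late in the arm, was at 96.0 and 93.0 FPKM in Ctrl and at 66.8 and 67.3 FPKM in cKO, and fell by 0.49 (SE 0.054, limma adjusted p = 0.0013). Both genes passed the threshold in every alternative, and in both the cKO libraries stood far below Ctrl relative to the spread of each group. *Ebp*, the sterol isomerase that acts before *Sc5d*, was at 28.7 and 29.0 FPKM in Ctrl and at 20.9 and 24.6 FPKM in cKO, and fell by 0.33 (SE 0.082, limma adjusted p = 0.025). The call for *Ebp* held in 8 of 13 alternatives. It was lost with no filter (limma adjusted p = 0.104) and with eBayes without trend (0.053). Leaving out Ctrl replicate 1, Ctrl replicate 2 or cKO replicate 1 also lost it (log2 fold change -0.34, -0.33 and -0.22).

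**Figure D2:**
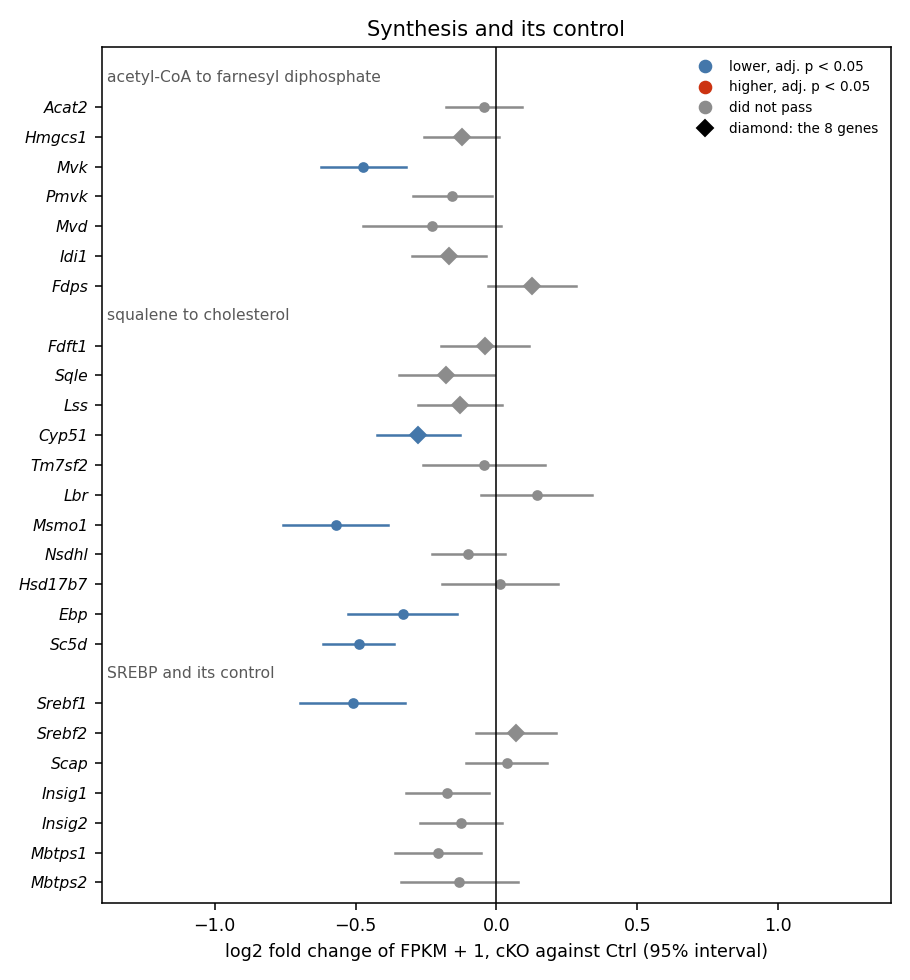
Log2 fold changes of FPKM + 1, cKO against Ctrl, with 95% intervals, for the synthesis genes reported here, in pathway order, and for the SREBP genes. Diamonds mark the 8 genes, and colors mark genes that fell (blue) or rose (red) at a limma adjusted p under 0.05. Most points lie left of 0, and *Mvk*, *Msmo1*, *Sc5d* and *Srebf1* lie farthest left.

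Of 7 genes for SREBP factors and their processing, 1 fell and none rose, a share near the 13.8% that fell among all genes. That gene was *Srebf1*, which encodes SREBP1, the relative of SREBP2 known mainly for fatty acid synthesis. It measured 138 and 118 FPKM in Ctrl and 88.8 and 89.9 FPKM in cKO and fell by 0.51 (SE 0.079, limma adjusted p = 0.0042), in contrast to *Srebf2*. The difference between the fold changes of the pair was not tested. *Insig1*, a sterol-regulated anchor that holds SREBP precursors in the endoplasmic reticulum, was the most abundant of the 7 at 364 and 354 FPKM in Ctrl and at 327 and 309 FPKM in cKO. Its log2 fold change of -0.17 (SE 0.063, interval -0.32 to -0.026) did not pass (limma adjusted p = 0.085), but passed under quantile normalization (-0.30, adjusted p = 0.014) and under scaling outside marker genes (-0.22, adjusted p = 0.044).

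Genes of lipoprotein uptake were called in both directions. Of 10 genes listed, 9 were tested, 3 fell (*Lrp1* and *Scarb1* among them) and 3 rose (*Npc1* and *Lipa* among them), with a median log2 fold change of -0.052, where 13.8% of all genes tested fell and 12% rose. *Scarb1*, the HDL receptor gene, was at 64.7 and 60.3 FPKM in Ctrl and at 44.4 and 48.5 FPKM in cKO, and fell by 0.42 (limma adjusted p = 0.0051, and 0.068 without Ctrl replicate 1). *Lrp1*, a large endocytic receptor of remnant particles, fell by 0.36 (limma adjusted p = 0.014). Its call was lost with no filter (limma adjusted p = 0.073). It was also lost without Ctrl replicate 1, cKO replicate 1 or cKO replicate 2 (log2 fold change -0.27, -0.40 and -0.32).

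*Lipa* and *Npc1* act in the lysosome, behind the receptors. *Lipa*, the lysosomal acid lipase that frees cholesterol from lipoprotein esters, stood at 37.3 and 40.5 FPKM in Ctrl and at 71.5 and 64.8 FPKM in cKO. With a log2 fold change of 0.79 (SE 0.072, limma adjusted p = 0.00067) it had the widest difference of the uptake list and passed in all 13 alternatives. *Npc1*, the lysosomal cholesterol exporter, rose by a log2 fold change of 0.25 (limma adjusted p = 0.031). Its call was lost with no filter (limma adjusted p = 0.061) and under scaling outside marker genes (0.062). Leaving out any 1 library also took the call away (log2 fold change 0.23 to 0.28). *Cd68*, a lysosomal gene of the macrophage list, was also higher in cKO (43.0 and 36.3 FPKM in Ctrl, 71.9 and 61.4 FPKM in cKO, limma adjusted p = 0.0028), while 4 of the 8 macrophage genes fell. The part of macrophages in the *Lipa* value was not tested.

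**Figure D3:**
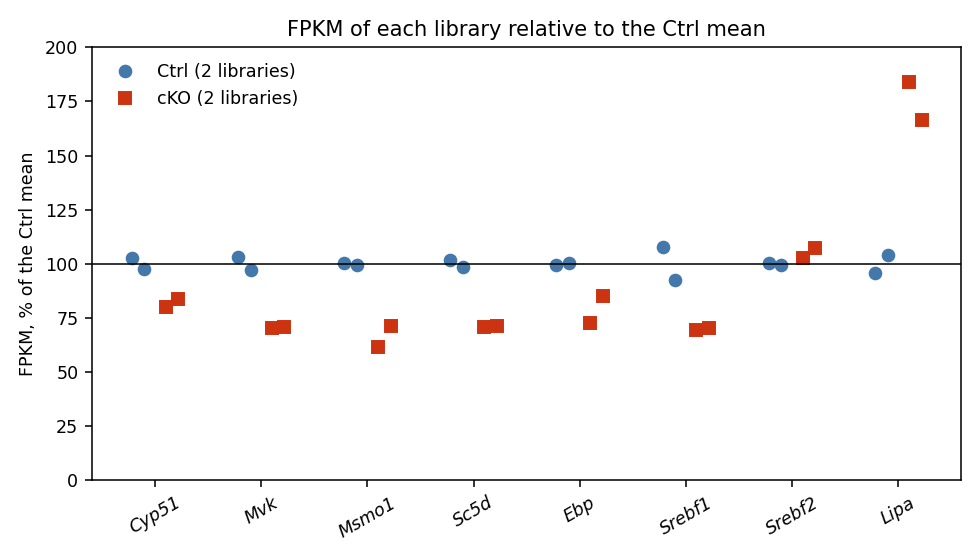
FPKM of each library as a percentage of the Ctrl mean for 8 genes of synthesis, control and uptake, with circles for Ctrl and squares for cKO. *Cyp51* (79.9% and 83.8% in cKO) lies between *Srebf2* (103% and 107%) and *Msmo1* (61.4% and 71.5%), and *Lipa* (184% and 166%) is the highest.

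Efflux and storage genes also split. Of 10 genes for efflux, esterification and liver X receptors 9 were tested (*Soat2*, the gene under the filter, was listed at 0.36 to 1.03 FPKM), 3 rose and 1 fell, beside 12% and 13.8% over all genes, and the median log2 fold change was 0.026. *Soat1*, which esterifies cholesterol, was at 3.08 and 3.48 FPKM in Ctrl and at 5.06 and 4.64 FPKM in cKO (log2 fold change 0.45, limma adjusted p = 0.013). *Nceh1*, an esterase that frees it again, was at 3.60 and 3.69 FPKM in Ctrl and at 5.95 and 5.67 FPKM in cKO (0.55, limma adjusted p = 0.0035). *Soat1* and *Nceh1* act in opposite directions on cholesterol esters, and the mRNA of both rose, at low levels. *Abcg1*, a sterol exporter, rose by a log2 fold change of 0.38 (limma adjusted p = 0.026), and *Nr1h3*, the gene of liver X receptor alpha, fell by 0.23 (limma adjusted p = 0.022). None of the 4 calls held without Ctrl replicate 1 (limma adjusted p of 0.126, 0.057, 0.150 and 0.126 in the order named). *Soat1* was also lost with no filter (limma adjusted p = 0.065), without Ctrl replicate 2 and without cKO replicate 1. *Abcg1* was also lost with no filter (limma adjusted p = 0.108), without Ctrl replicate 2 and without cKO replicate 2. *Nr1h3* was lost with eBayes without trend (limma adjusted p = 0.057) and without any 1 library.

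The branches that draw on farnesyl diphosphate gave no call by limma. Of 8 genes for prenylation, dolichol and ubiquinone, 0 passed, beside 25.8% of all genes tested. At an unadjusted p under 0.05, 3 of them differed, beside 4873 of the 12658 genes tested. The log2 fold changes ran from -0.19 to 0.26. Of the 2 genes that supply cytosolic acetyl-CoA, *Acss2*, which activates acetate, fell from 334 and 326 FPKM in Ctrl to 259 and 254 FPKM in cKO (-0.36, limma adjusted p = 0.0051, and 0.076 without Ctrl replicate 1). Of 7 fatty acid synthesis genes known as SREBP targets, 2 fell and 1 rose, beside 13.8% and 12% of all genes tested. The desaturase genes *Fads1* (46.9 and 43.7 FPKM in Ctrl, 23.6 and 26.2 FPKM in cKO) and *Fads2* (16.9 and 14.7 FPKM in Ctrl, 10.5 and 10.4 FPKM in cKO) fell by 0.84 and 0.55 (limma adjusted p = 0.00056 and 0.0034) and passed in every alternative. *Elovl6*, a fatty acid elongase gene, went from 197 and 229 FPKM in Ctrl to 315 and 289 FPKM in cKO (0.51, limma adjusted p = 0.0066). Its call was lost with no filter (limma adjusted p = 0.060) and without Ctrl replicate 1 (log2 fold change 0.40).

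**Figure D4:**
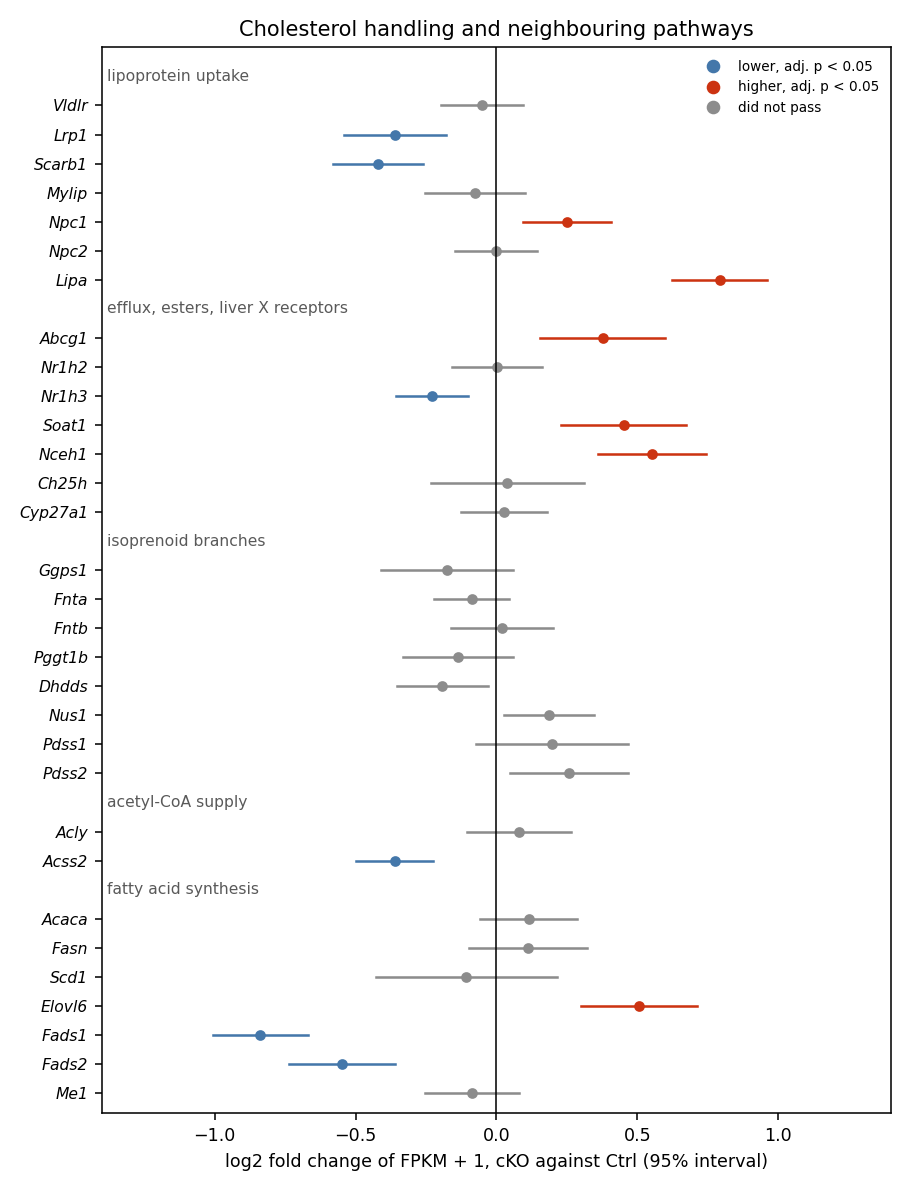
Log2 fold changes of FPKM + 1, cKO against Ctrl, with 95% intervals, for genes of uptake, efflux and storage, isoprenoid branches, acetyl-CoA supply and fatty acid synthesis reported here, with blue for genes that fell and red for genes that rose at a limma adjusted p under 0.05. Receptor genes lie left of 0, *Lipa* lies farthest right, and no isoprenoid gene is colored.

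Outside these lists, the genes nearest to the mean profile of the 8 over the 4 libraries were *Dcps*, *Naa60*, *Cry1*, *Gbp3* and *Atp6v0d1*, at Euclidean distances of 0.0098 to 0.016 on the centered log2 scale among 8727 candidates. *Dcps*, for example, measured 15.8 and 15.4 FPKM in Ctrl and 14.6 and 14.5 FPKM in cKO. None of the 5 passed the test. A profile over 4 libraries holds little beyond the genotype difference, so many genes lie close.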

How the data were processed

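Polyadenylated RNA of ingWAT was sequenced single-end by the authors (BGISEQ-500), and they deposited 1 table of FPKM per gene and library. The submitters' processing notes list mm10, HISAT2 2.0.4 and RSEM 1.2.12 without roles, and no scaling between libraries is stated. FPKM sums were 484152 to 497839 per library. Depth was estimated from FPKM steps of 319 short genes (at most 400 bases, up to 6 reads) as 17400000 to 18200000 reads, with 83.9% to 90.4% of 136 to 142 values whole within 0.1 reads; reads were not recovered for genes in general, so no count test was run. Depth covers counting error only.

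Libraries were grouped by their titles. The 12658 of 19030 genes that averaged 1 FPKM or more were compared on log2(FPKM + 1) with limma 3.58.1 (R 4.3.3; eBayes with trend, two-sided, Benjamini-Hochberg over all of them, threshold 0.05). Fold changes on that scale understate those of low genes. An exact test of 2 against 2 libraries cannot go below p = 0.333. The fit code was checked on simulated data, with the same added spread for every gene. That does not test the calls reported here. Dates had replaced 24 symbols, and 18977 gene IDs were found in RefSeq tables of GRCm38.p6, used for positions and promoters. Other steps ran in Python 3.11.15 (numpy 2.4.6, pandas 2.3.3), and plots in matplotlib 3.10.9.

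The 8 genes, the pathway lists and the marker lists were chosen with earlier results of these data known. Named are the 8 genes, list genes that passed or were chosen by name (*Insig1* and *Srebf1*), the targeted gene, and the 5 nearest profiles of mean FPKM of at least 5; *Soat2*, *Ctsb* and marker genes were named after their values were seen. Some genes of the pathway lists enter the counts but are not reported here by name or value. Alternatives were no filter or a mean FPKM of at least 5, a pseudocount of 0.1, 3 other scalings (median-of-ratios, quantile, a fixed sum outside marker genes), eBayes without trend, a replicate block, no short RNA genes and each library left out.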

Additional observations from a re-analysis of the deposited data

How the results depend on the processing

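With 1 library left out, the lone library of its group was assumed to vary like the others. Of the 8 genes, *Cyp51* lost its call with no filter (-0.28, limma adjusted p = 0.053), and its log2 fold change ran from -0.31 to -0.24 with 1 library left out. *Idi1* passed under scaling outside marker genes (-0.21). *Fdft1* turned to 0.016 without cKO replicate 2. The number of the 8 that fell was 0 with no filter, 2 under scaling outside marker genes and 0 to 1 with 1 library left out. Their median was -0.17 under scaling outside marker genes and -0.13 to -0.10 with 1 library left out. Over all genes, 1095 fell and 667 rose with no filter, against 519 to 1434 and 358 to 1071 with 1 library left out. Calls in the mevalonate arm numbered 2 under quantile normalization and 3 under scaling outside marker genes, where isoprenoid branches had 1. The sterol arm had 2 with no filter and 2 to 5 with 1 library left out. SREBP genes had 2 at a mean FPKM of at least 5, 2 without short RNA genes, 3 under quantile normalization and 3 under scaling outside marker genes. Efflux and storage had 2 with no filter and 2 at a mean FPKM of at least 5, where *Soat1* and *Nceh1* were not tested. Leaving out 1 library gave 1 to 5 for uptake, 0 to 1 for acetyl-CoA supply and 0 to 1 for isoprenoid branches. Apart from genes that a filter removed, the cause of these changes was not tested.

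Replicate numbers did not pair the libraries (r = 0.015 between the deviations of Ctrl and cKO replicate 1 over 12658 genes). With the replicate block *Cyp51* stayed past the threshold (limma adjusted p = 0.020), 1 of the 8 genes fell, 2 mevalonate genes passed, and 1789 genes fell and 1594 rose over all genes. Of the 21 called genes of the pathway lists, 7 (*Mvk*, *Msmo1*, *Sc5d*, *Srebf1*, *Lipa*, *Fads1* and *Fads2*) passed under every alternative. In all, 505 alternative values stayed the same. These were fold changes that kept direction and side, together with counts and medians that changed little. Of the others, 46 lost the call, 4 gained it, 1 reversed and 40 counts or medians moved. At 17400000 to 18200000 reads per library, the counting error of the 8 genes (0.019 to 0.046) was below their limma standard errors (0.056 to 0.072).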
